A study of Mus musculus with 2 samples.

Results

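Cdkn1a encodes p21, a protein that binds and inhibits cyclin-dependent kinases and can hold cells before DNA replication or before mitosis. Its transcription is classically switched on by p53 after DNA damage, and p53-independent inducers such as KLF4, EGR1, SMAD and Sp1 factors are also known. The cells described here are those of a mouse pancreatic ductal adenocarcinoma culture in which at least 1 Cdkn1a transcript was seen, within 1 of the 2 expression classes of that culture.

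The study placed an adenine base editor built on Cas12a in KPCY 6419c5 cells as part of a recording system called BASELINE, sorted single cells, and grew them into clones. KPCY lines come from a mouse model of pancreatic cancer in which a pancreas-directed Cre recombinase turns on mutant Trp53 and a yellow fluorescent reporter, among other alleles (background that the labels do not spell out). Clones 76 and 84 were mixed 1:1 after 19 days of editing and measured in 1 library with the 10x 3′ v4 chemistry. Each clone grew from 1 sorted cell, and there was no unedited control and no replicate of the pool. A second pool, of clones 1, 32, 33, 52 and 76, was not analysed here.

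Cells were kept that had 2000 or more unique molecular identifiers (UMIs, counted transcripts), 1000 or more genes and no more than 15% mitochondrial UMIs. B cells had at least 2 UMIs of S100a7a, Rgs20, Hs6st2, Ccbe1, Ctse and Mal together, and at least 3 times as many of these as of Pde10a, Plcb1, Galnt18, Arhgap15 and Ceacam1. A cells were the mirror class, by the same rule with the gene sets exchanged. Cells were not assigned to clones, so B is a class of cells and not a named clone. Each cell with at least 3000 UMIs was thinned once at random to 3000 UMIs. B cells with at least 1 Cdkn1a UMI among these are called Cdkn1a-positive, and those with 0 are called Cdkn1a-zero. The cells were thus selected on their measured Cdkn1a and class-gene UMIs, and those values are given only as a description. The rule gave 593 Cdkn1a-positive cells among 8827 B cells of sufficient depth, of 21361 cells that passed the filter. Another 109 B cells were too shallow to be assigned.

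All values come from 1 library. They therefore carry no p-value, and intervals are exact 95% intervals that cover counting error only. Levels are CPM, the usual depth-scaled unit, from UMIs summed over a set of cells. Each gene is compared between sets of cells, and levels of different genes are not compared with each other.

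The median depth was 5343 UMIs in Cdkn1a-positive cells and 5471.5 in Cdkn1a-zero cells. The median mitochondrial share was 1.91% and 1.89%, and a median of 1526 and 1532 genes was seen among 3000 UMIs. Transcripts of the rule's B genes made up 968 and 949 CPM. Both sets were epithelial: the ductal keratin Krt7 stood at 1363 and 1358 CPM, and was seen in 96.5% and 96.0% of cells. Markers of cells outside the line were near 0. The acinar list of 8 genes held 5.89 and 4.31 CPM, the immune list of 8 genes 1.40 and 1.59 CPM, and the endothelial list of 6 genes 8.41 and 8.73 CPM. Fibroblast genes (7) held 5.33 and 6.81 CPM and erythroid genes (5) held 5.89 and 3.33 CPM. The 6 endocrine genes had 0 UMIs in the positive cells.

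Nupr1 and Sprr1a had the highest ratios of positive over zero cells among genes with at least 50 CPM over all B cells. Their promoters and those of Cdkn1a are shown to set known regulatory letters beside what was measured. Each is the 250 bases before an annotated start, 5′ to 3′ on the gene's strand, from RefSeq on GRCm38.p6, a build other than the GRCm39 of the counts. The first Cdkn1a start is at chr17:29090729-29090978 (+), and its capitals mark a pair of p53 half-sites with 1 letter off the consensus, beginning 51 bases before the start.
Cdkn1a start 1: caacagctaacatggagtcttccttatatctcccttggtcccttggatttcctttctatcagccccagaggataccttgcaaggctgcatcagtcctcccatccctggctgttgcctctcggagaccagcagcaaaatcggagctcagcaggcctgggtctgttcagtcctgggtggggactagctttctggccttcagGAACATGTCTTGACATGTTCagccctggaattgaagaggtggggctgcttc
A p53 pair with at most 1 letter off occurred in 25 of 32544 such windows (0.0768%). The second start lies 2790 bases further on, at chr17:29093519-29093768 (+). Capitals mark GC boxes (GGGCGG, either strand, the letters Sp1 factors bind), of which it holds 2.
Cdkn1a start 2: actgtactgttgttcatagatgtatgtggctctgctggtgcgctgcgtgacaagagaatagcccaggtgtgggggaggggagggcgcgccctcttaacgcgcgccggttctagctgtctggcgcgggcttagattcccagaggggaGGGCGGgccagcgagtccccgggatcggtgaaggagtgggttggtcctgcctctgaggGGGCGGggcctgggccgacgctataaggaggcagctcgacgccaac
For Nupr1, at chr7:126625471-126625720 (-), capitals mark 1 match to the C/EBP-ATF element TGATGNAA on the reverse strand and 2 GC boxes.
Nupr1: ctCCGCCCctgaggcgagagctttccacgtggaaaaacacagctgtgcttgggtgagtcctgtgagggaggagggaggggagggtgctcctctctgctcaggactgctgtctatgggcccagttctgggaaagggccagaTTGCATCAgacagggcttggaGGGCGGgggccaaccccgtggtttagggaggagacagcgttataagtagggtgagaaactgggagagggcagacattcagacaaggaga
For Sprr1a, at chr3:92485882-92486131 (-), capitals mark 2 copies of the AP-1 element TGANTCA, which Fos and Jun proteins bind.
Sprr1a: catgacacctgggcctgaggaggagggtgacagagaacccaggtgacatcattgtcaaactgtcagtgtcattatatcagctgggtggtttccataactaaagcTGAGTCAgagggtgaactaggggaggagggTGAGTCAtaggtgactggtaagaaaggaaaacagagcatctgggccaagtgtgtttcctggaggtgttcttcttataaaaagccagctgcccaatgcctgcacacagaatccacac
Over all 32544 windows, both strands counted, 33.0% held a GC box, 3.40% held TGATGNAA and 6.73% held TGANTCA. The window of Sqstm1, another of the higher genes, held 3 GC boxes and 0 matches to a p53 pair, TGATGNAA or TGANTCA. These matches describe letters only, and binding was not measured.

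Cdkn1a transcripts were rare among B cells. The Cdkn1a-positive share was 6.72% (6.20 to 7.26%) at 3000 UMIs per cell. Without thinning, 1033 of the 8827 cells had a Cdkn1a UMI, or 11.7% (11.04 to 12.4%). The share was 0.716% (0.537 to 0.935%) in 7406 A cells, at a median depth of 4794.5 UMIs against 5465 in B cells, and 3.54% (2.996 to 4.15%) in 4126 cells of neither class. Of the positive cells 541 had 1 UMI, 42 had 2 and 10 had 3 or more, up to 5.

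The share was read just inside and just outside the class rule. With none of the A genes, B cells at exactly 2 B-gene UMIs were Cdkn1a-positive in 6.52% of 1151 cells, and cells just outside, at 1 B-gene UMI, in 6.52% of 890. On the other side, the share was 7.43% (3.77 to 12.9%) of 148 B cells with A-gene UMIs and 3 to under 5 times as many B-gene UMIs. It was 2.99% (1.501 to 5.29%) of 368 cells just outside, with at least 2 B-gene UMIs and between 1 and under 3 times the A-gene UMIs.

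The UMIs that thinning had not drawn gave a reading of Cdkn1a that the selection did not use. In these held-out UMIs the gene stood at 20.1 CPM (18.4 to 22.02) in Cdkn1a-zero cells. It stood at 57.3 CPM (46.2 to 70.3) in cells with 1 drawn UMI, 129 CPM (77.5 to 201) in cells with 2, and 418 CPM (234 to 690) in cells with 3 or more. The positive cells together held 70.4 CPM (58.7 to 83.9), 3.50 times the zero cells (2.85 to 4.26). Cells with 2 or more drawn UMIs were in turn 3.23 times above those with 1 (2.11 to 4.84). The levels followed the drawn count in order, and 5.34% of zero cells had a held-out Cdkn1a UMI against 15.5% of positive cells.

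Whether the levels form 1 range or separate groups of cells was not tested, and the makeup of the positive set depended on the draw. A second random draw selected 578 cells, of which 353 were also in the first, 59.5% of the first set and 61.1% of the second. The held-out ratio with the second draw was 3.84. In A cells the held-out level was 61.3 CPM in the 53 positive cells and 2.73 CPM in the rest, a ratio of 22.5 (8.56 to 50.1) that rests on 7 UMIs. In cells of neither class the ratio was 9.40 (5.94 to 14.5), over a class that mixes cells near both A and B.

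**Figure D1:**
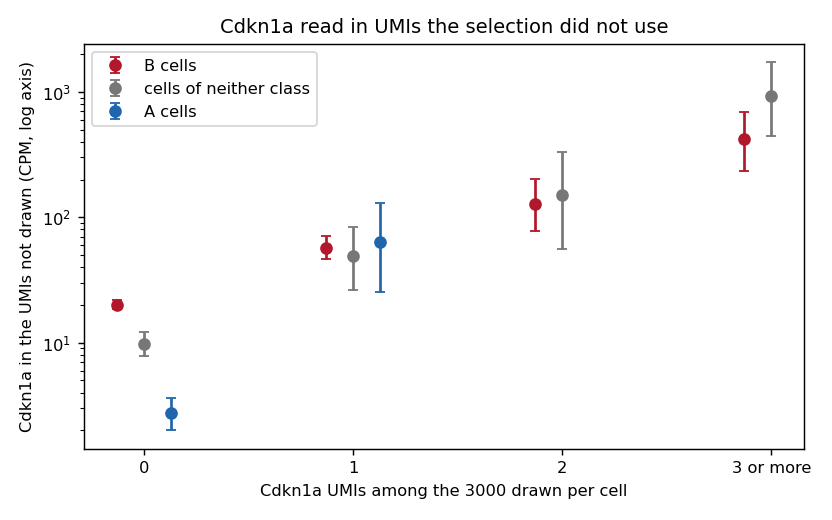
Cdkn1a level in UMIs that were not drawn (CPM, log axis) against the number of Cdkn1a UMIs among the 3000 drawn, for B cells, A cells and cells of neither class. Points are levels over summed UMIs and bars are exact 95% counting intervals, with points of 0 UMIs left out. In B cells the level goes from 20.1 CPM at 0 drawn UMIs to 418 CPM at 3 or more.

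The genes around Cdkn1a on chromosome 17 were read in both sets. In the gene order of GRCm38.p6, Srsf3, a splicing factor gene on one side, stood at 385 CPM in positive and 387 CPM in zero cells. The kinase gene Stk38, the next but one in that direction, stood at 49.1 and 49.2 CPM. On the other side the cyclophilin gene Ppil1 stood at 74.8 and 71.0 CPM, and BC004004 at 66.7 and 67.3 CPM. The ratios of these 4 genes lay between 0.991 and 1.05. Kctd20, scarcer and next after Stk38, stood at 17.4 and 15.5 CPM (ratio 1.12, 0.853 to 1.46). The closest gene on the Ppil1 side, Rab44, had 0 UMIs in both sets.

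Across the transcriptome the positive cells were close to the zero cells. Of 3259 genes with at least 50 CPM over all B cells, without Cdkn1a and the 11 genes of the class rule, 23 (0.706%) were higher in positive cells by a log2 ratio over 0.32 (a ratio above 5 to 4), and 27 (0.828%) were lower by as much. This is the fold threshold used for all genes below. The median log2 ratio was 0.00, and the 1st and 99th percentiles were -0.31 and 0.29. Of the 50 genes past that fold, 37 were in none of the gene lists used. With the second draw, which shares 353 of the 593 cells and so is no independent check, 14 of the 23 and 18 of the 27 were again past the fold threshold. The genes were also read in 15 other ways of choosing the cells or comparing the counts. These reuse the same library and many of the same cells, so they are no independent check either. Past the threshold in every one were 6 of the 23 higher genes: Nupr1, H2bc4, Dynap, Sqstm1, Sdcbp2 and Lpin2. Lpin2, at 49.5 CPM in zero and 65.3 CPM in positive cells, reached the 50 CPM minimum only through the positive cells. None of the 27 lower genes was past the threshold in every one, though Plk1, Ccnb1, Prc1, Pkhd1 and Pik3c2g were in 14 of the 15.

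**Figure D2:**
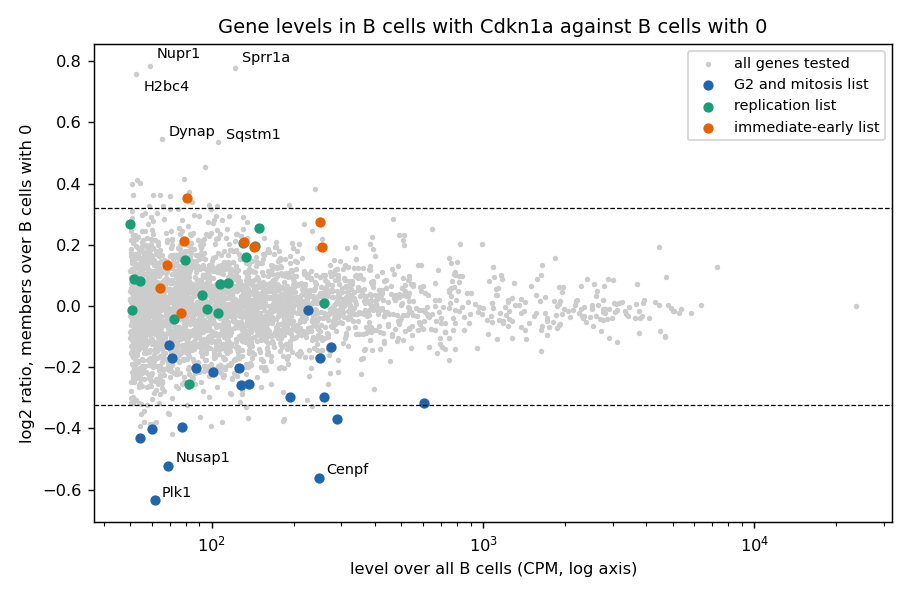
Log2 ratio of each tested gene's level in Cdkn1a-positive over Cdkn1a-zero B cells against its level over all B cells (CPM, log axis). Coloured points are the G2 and mitosis, replication and immediate-early lists, and dashed lines mark the fold threshold. All 20 points of the mitosis list lie below 0, down to Plk1 at -0.64.

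Among the 3259 tested genes the highest ratios belonged to Nupr1, Sprr1a and H2bc4, ranked in these same cells. Nupr1, a small stress-induced chromatin protein gene, stood at 56.3 CPM in zero cells, 82.4 in cells with 1 Cdkn1a UMI and 236 in the 52 cells with 2 or more. Its ratio of all positive over zero cells was 1.72 (1.54 to 1.93). Sprr1a, a cornified-envelope precursor of squamous epithelium, stood at 116, 170 and 477 CPM in the same order, a ratio of 1.72 (1.59 to 1.86). H2bc4, a histone H2B gene, stood at 50.3, 70.6 and 221 CPM, a ratio of 1.69 (1.49 to 1.90). The genes were ranked on all positive cells, so their place above the zero cells describes the ranking.

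Sqstm1 encodes the autophagy receptor p62 and stood at 103, 135 and 277 CPM, a ratio of 1.45 (1.32 to 1.59). Dynap, a membrane protein gene, had 63.4, 89.8 and 118 CPM and a ratio of 1.46. Sdcbp2, which encodes the scaffold syntenin-2, had 92.2, 121 and 171 CPM and a ratio of 1.37. Nfkbia, the NF-κB inhibitor gene, had 52.98, 64.4 and 124 CPM and a ratio of 1.32. Rhoc, a small GTPase gene, had 235, 295 and 427 CPM and a ratio of 1.30 (1.23 to 1.39). Map1lc3b, which encodes an autophagosome protein that binds p62, had 189, 216 and 439 CPM and a ratio of 1.26.

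Further genes past the threshold were the transcription factor genes Klf4 (1.28) and Atf4 (1.254), the collagenase gene Mmp13 (1.33), the basal keratin gene Krt14 (1.28), the cyclooxygenase gene Ptgs1 (1.29) and the chemokine gene Cxcl16 (1.26). Macrod2 and Lpin2, Mcub, Selenom, Ube2e3, Gm8797, Rsbn1 and Gmfb completed the 23. In the 541 cells with exactly 1 Cdkn1a UMI, a comparison chosen after seeing the data, 14 of the 23 higher genes and 20 of the 27 lower genes were past the threshold.

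The UMIs of Nupr1, Sprr1a and H2bc4 were concentrated in few cells. The 10 positive cells richest in each gene held 35.0% of the Nupr1 UMIs, 32.6% of the Sprr1a UMIs and 33.3% of the H2bc4 UMIs. Among the other genes of the 12 highest this share ran from 8.94% for Rhoc to 24.5% for Mmp13. It was not read in zero cells. Nupr1 was seen in 17.03% of positive and 12.5% of zero cells among 3000 UMIs, and Sprr1a in 21.8% and 12.5%. H2bc4 was seen in 14.5% (11.8 to 17.6%) and 12.5% (11.8 to 13.3%), with overlapping intervals. Leaving out the 10 cells with 3 or more Cdkn1a UMIs, a comparison chosen after seeing the data, left 16 of the 23 higher genes and 24 of the 27 lower genes past the threshold.

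**Figure D3:**
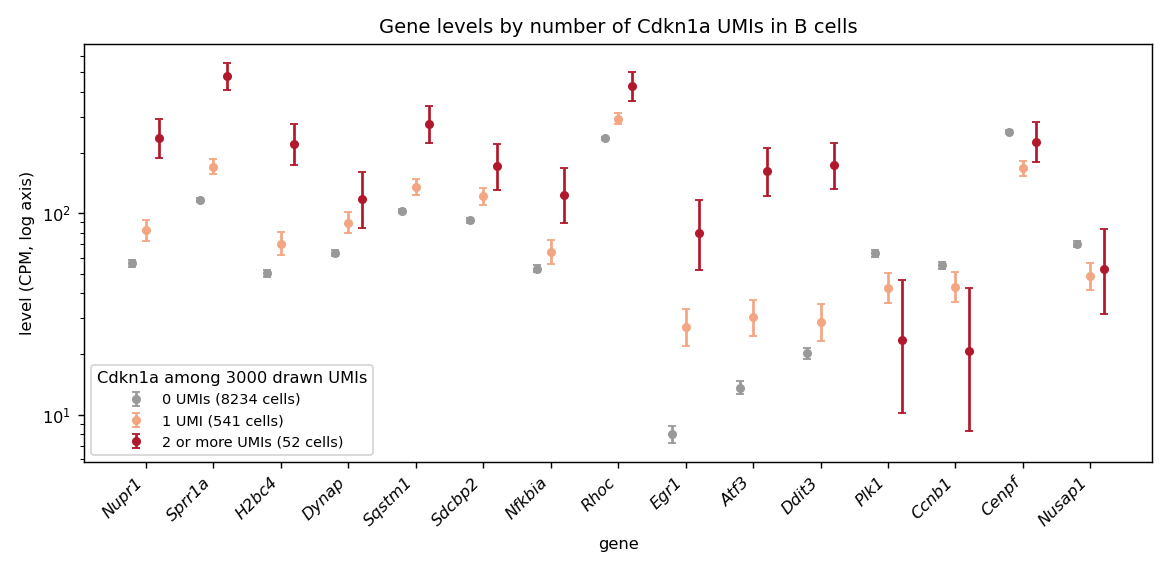
Levels (CPM, log axis) of 15 genes in B cells with 0, 1 and 2 or more Cdkn1a UMIs among 3000 drawn; bars are exact 95% counting intervals. Nupr1, Sprr1a, H2bc4, Sqstm1, Atf3 and Ddit3 are each higher with 1 UMI than with 0 and higher again with 2 or more, while Plk1 and Ccnb1 step down.

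The same ratios were read in Cdkn1a-positive cells outside class B. Of the 23 higher genes, 21 were above 1 in the 53 positive A cells relative to A cells with 0, and 22 in positive cells of neither class. Over all 3259 tested genes these numbers were 1591 and 1672. Several ratios in A cells rest on few UMIs, such as 2 for Mcub, 3 each for Dynap, Mmp13 and Ptgs1 and 5 for Sdcbp2, and their intervals include 1. Genes with ratios near 1 in B cells could be higher there too: Krt7 had a ratio of 1.76 in A cells and 1.66 in cells of neither class, and Areg 2.40 and 1.96. In A cells Sprr1a was 14.9-fold higher (11.3 to 19.2), Nupr1 3.23-fold (2.74 to 3.78), Rhoc 2.78-fold (2.21 to 3.45), Sqstm1 2.45-fold (2.02 to 2.95) and H2bc4 2.31-fold (1.67 to 3.12). Of the 27 lower genes, 20 and 24 were below 1 in those comparisons, against 1668 and 1587 of all tested genes. The difference in ratio between the classes was not tested.

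Genes too scarce for the 50 CPM minimum have wider counting errors and were read apart. Of 6143 genes from 5 to under 50 CPM, a range chosen after seeing the data, 9 (0.147%) were more than 2-fold higher and 6 (0.0977%) more than 2-fold lower. Past the threshold used for the abundant genes, 473 were higher and 597 lower. Egr1, an immediate-early zinc-finger factor that is among the known inducers of Cdkn1a, had 7.97 CPM in zero, 27.3 in 1-UMI and 79.5 in 2-or-more cells, a ratio of 4.04 (3.26 to 4.99). Of its 115 UMIs in positive cells 45 came from 1 cell, and 10 cells held 79.1%. Atf3, a stress-induced factor of the ATF family, had 13.6, 30.4 and 162 CPM and a ratio of 3.16 (2.63 to 3.77), with 60.1% of its UMIs in 10 cells. Ddit3, the CHOP gene of the integrated stress response, had 20.2, 28.8 and 174 CPM and a ratio of 2.11 (1.77 to 2.51), with 51.3% of its UMIs in 10 cells. It was seen in 6.41% (4.57 to 8.69%) of positive and 5.08% (4.61 to 5.57%) of zero cells, with overlapping intervals.

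The others past 2-fold were Pstpip2, Csf2, Gm49774, Hid1, Ndrg1 and Dusp1. Gm49774, at 4.82 CPM in zero and 10.1 CPM in positive cells, reached the minimum of 5 CPM only through the positive cells. Dusp1, a phosphatase that turns off MAP kinases, had 11.96 and 24.4 CPM in zero and positive cells, and Csf2, the GM-CSF gene, had 5.27 and 11.5 CPM. Just under 2-fold, Sfn, the stratifin gene and a cell-cycle checkpoint protein of epithelia, had 17.3 and 33.9 CPM, a ratio of 1.96 (1.60 to 2.37). Egr1 or Atf3 was seen in 9.95% (7.66 to 12.6%) of positive and 5.71% (5.22 to 6.23%) of zero cells. Egr1 alone was seen in 3.54% (2.21 to 5.36%) and 2.22% (1.92 to 2.56%), with overlapping intervals. Atf3 alone was seen in 7.42% (5.44 to 9.83%) and 3.59% (3.20 to 4.02%). Ddit3 or Nupr1 was seen in 21.4% and 16.7%, and Krt14 or Sprr1a in 34.9% and 25.1%. All 3 pairs were seen in 9 positive cells, 1.52% (0.696 to 2.86%), and in 0.304% of zero cells. Any of the 6 genes was seen in 49.9% and 39.8%. The 6 genes were picked with their higher levels in positive cells known, so these shares restate that ranking.

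Of the list of 28 immediate-early genes 9 were tested. Of these, 8 had a ratio above 1 and 1, Klf4, was past the fold threshold, with a median log2 ratio of 0.19. Over all tested genes 1581 of 3259 were above 1, 0.706% were past the threshold on that side and the median was 0.00. Ier3 had 299 against 247 CPM, Junb 287 against 251 CPM, Jund 150 against 130 CPM and Klf6 162 against 142 CPM, whereas Myc had 76.0 against 77.1 CPM. Below the minimum, Jun had 46.0 against 30.0 CPM and Fos 30.8 against 22.5 CPM. In the ATF4 and unfolded-protein list, Nupr1 and Atf4 of 10 tested genes were past the threshold (0.706% of all tested genes), 6 of the 10 were above 1 and the median was 0.09. The chaperone genes Hspa5 (849 and 786 CPM) and Hsp90b1 (1190 and 1214 CPM) and the serine-synthesis gene Phgdh (665 and 666 CPM) did not reach it.

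Of the lists, that of G2 and mitosis genes had the lowest median ratio. All 20 tested genes of this list of 25 had a ratio below 1, and 7 were past the fold threshold, with a median log2 ratio of -0.28, while the other 13 did not pass. Over all tested genes 1678 of 3259 had a ratio below 1, 0.828% were past the threshold on that side and the median was 0.00. Summed over the list the level was 3005 CPM in positive and 3620 CPM in zero cells. Plk1, the kinase that drives mitotic entry, stood at 40.6 CPM against 63.1 CPM, a ratio of 0.644 (0.541 to 0.761). Plk1 stood at 42.4 CPM in cells with 1 Cdkn1a UMI and 23.6 CPM with 2 or more, so both sets were below the zero cells.

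Ccnb1, cyclin B1, stood at 40.9 against 55.1 CPM (0.742, interval 0.624 to 0.877), and at 43.1 and 20.6 CPM with 1 and 2 or more Cdkn1a UMIs. The kinetochore gene Cenpf stood at 172 against 254 CPM, a ratio of 0.678 (0.624 to 0.735), and at 167 CPM with 1 UMI and 227 CPM (179 to 283) with 2 or more. The spindle gene Nusap1 stood at 49.1 against 70.4 CPM, a ratio of 0.697, and at 48.6 and 53.02 CPM with 1 and 2 or more. Cdc20, which activates the anaphase-promoting complex, stood at 46.2 against 61.1 CPM in all positive cells, but at 42.7 CPM with 1 UMI and 79.5 CPM with 2 or more. Top2a stood at 491 against 612 CPM, Cdk1 at 161 against 197 CPM and Mki67, the proliferation antigen, at 253 against 277 CPM.

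Cyclin and CDK genes mostly stayed within the fold threshold. Of 10 tested cyclin, CDK, pocket protein and E2F genes, 9 had a ratio below 1 and 1, Ccnb1, was past the threshold, with a median log2 ratio of -0.19. Over all tested genes 1678 of 3259 had a ratio below 1 and 0.828% were past the threshold on that side. Ccnd1, cyclin D1, stood at 472 against 509 CPM and Cdk4, its partner kinase, at 209 against 235 CPM. Cdk6 stood at 97.5 against 119 CPM and Ccna2, cyclin A2, at 103 against 128 CPM. The list shares Ccnb1, Ccnb2 and Cdk1 with the mitosis list.

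The tested replication genes lay within the fold threshold. Of 17 tested, 12 had a ratio above 1 and 0 were past the threshold, with a median log2 ratio of 0.08, beside 1581 of 3259 tested genes above 1. The sliding clamp gene Pcna stood at 149 against 129 CPM and the helicase gene Mcm4 at 176 against 147 CPM, whereas the reductase gene Rrm2 stood at 261 against 259 CPM and the ligase gene Lig1 at 70.1 against 83.5 CPM. Below the 50 CPM minimum over all B cells, Cdc6, which loads the helicase in G1, stood at 45.7 against 34.3 CPM and Mcm5 at 56.9 against 44.1 CPM, ratios of 1.33 (1.13 to 1.57) and 1.29 (1.11 to 1.49) that were past it. In cells with 2 or more Cdkn1a UMIs the tested replication genes together stood at -0.09 relative to zero cells on the log2 scale. No counting interval was computed for this value.

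The same counts can be read as the share of Cdkn1a-positive cells by list level, which restates the comparison above and adds no separate evidence. B cells were split into tertiles by their UMIs of the mitosis list among the 3000 drawn, and ties left the tertiles unequal. The share was 7.68% (6.81 to 8.62%) in the lowest tertile, 8.08% (7.05 to 9.21%) in the middle tertile and 4.32% (3.60 to 5.13%) in the highest. The Cdkn1a level over all UMIs was 30.7, 28.7 and 14.4 CPM. The highest tertile had an interval apart from the others, which overlapped. By the replication list the share was 5.64%, 7.14% and 8.08% from the lowest to the highest tertile, and the Cdkn1a level 21.9, 23.9 and 29.3 CPM. Cell-cycle phase was not called.

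When zero cells were weighted to the positive cells' makeup of tertiles in both lists, the mitosis list ratio went from -0.28 to -0.04 on the log2 scale, as this weighting was built to do. The number of lower genes past the threshold went from 27 to 15, of which 11 were among the 27. The number higher stayed at 23, of which 22 were the same genes.

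The mitosis genes are also known to share promoter elements, so the windows of the tested ones were searched. In the 300 bases around the start, 250 before and 50 after, 14 of 19 matched genes held TTTGAA, the cell-cycle homology letters bound by the complex that silences mitotic genes in resting cells. Those letters, on either strand, occurred in 17.8% of all 32544 windows. CCAAT, bound by NF-Y, occurred in 15 of the 19 and 37.4% of all windows, and GGGCGG in 18 and 35.9%. These are shares of sequence windows and do not bear on the difference between positive and zero cells.

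**Figure D4:**
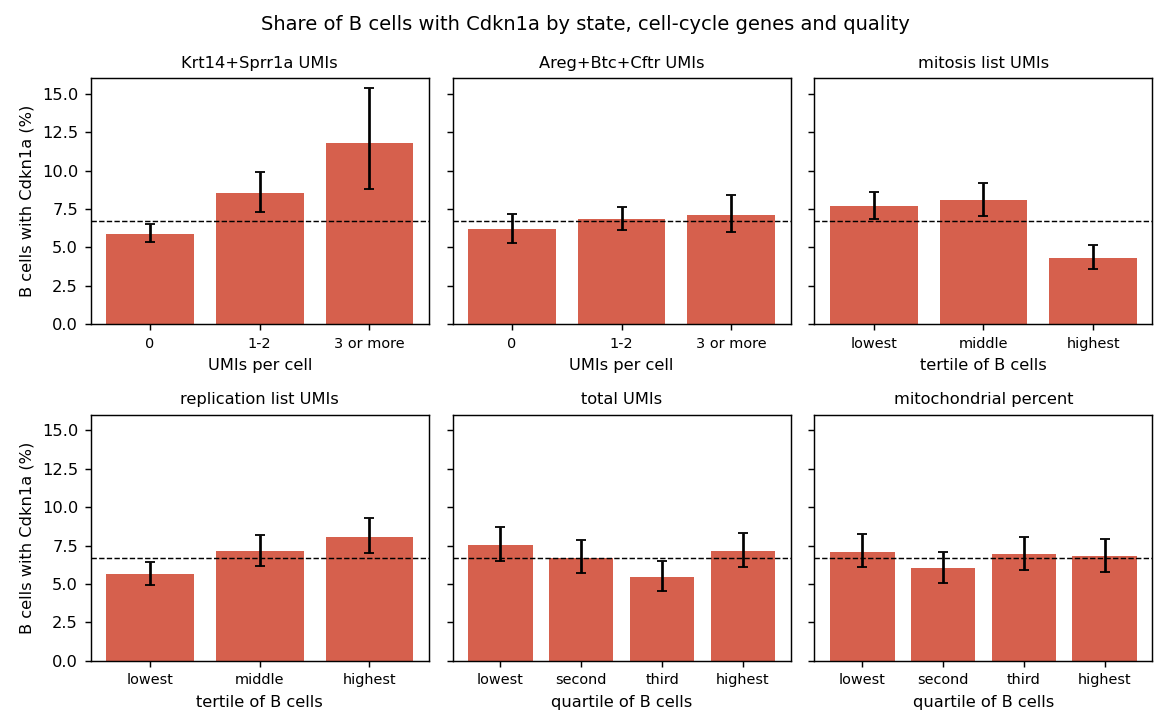
Percentage of B cells that were Cdkn1a-positive in bins of squamous (Krt14 and Sprr1a) UMIs, of Areg, Btc and Cftr UMIs, of mitosis and replication list UMIs, of total UMIs and of mitochondrial percent. Bars start at 0, error bars are exact 95% counting intervals and the dashed line is the 6.72% of all B cells. The share goes from 5.89% to 11.8% with Krt14 and Sprr1a UMIs and is lowest, at 4.32%, in the highest tertile of mitosis UMIs.

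The p53 pathway is the best-known input to Cdkn1a. The 28 classical targets, without Cdkn1a, together held 816 CPM in positive and 736 CPM in zero cells, a ratio of 1.11 (1.07 to 1.15), and 966 CPM in the cells with 2 or more Cdkn1a UMIs. Trp53 itself stood at 301 CPM in positive and 299 CPM in zero cells (ratio 1.01, 0.946 to 1.07). Mdm2, the ubiquitin ligase that p53 induces and is destroyed by, stood at 28.3 and 24.2 CPM (1.17, 0.943 to 1.43). Of the 5 tested genes among 28 classical targets, all had a ratio above 1 and 0 were past the threshold, and the median log2 ratio was 0.15. Their summed log2 ratio was 0.13, and from 0.01 to 0.38 over 17 other settings. Over all 3259 tested genes 1581 had a ratio above 1, and the median was 0.00. Perp, a desmosomal and death gene, stood at 109 against 88.6 CPM, Plk2 at 67.0 against 54.6 CPM, Epha2 at 98.9 against 89.0 CPM, Bax at 191 against 189 CPM and Phlda3 at 59.4 against 59.3 CPM.

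Of 23 targets with at least 3 CPM over all B cells, a minimum chosen after seeing the data, 18 had a ratio above 1. In 5 the whole interval was above 1, and in 0 it was below. Of all 10232 genes at that minimum, 48.0% had a ratio above 1. The targets given next, all below the 50 CPM minimum, were named after their values were seen. Bbc3, the death gene PUMA, stood at 8.97 against 4.56 CPM (1.97, 1.31 to 2.86) and was seen in 3.88% against 1.24% of cells. Plk3 stood at 7.01 against 3.13 CPM, a ratio of 2.24 (1.41 to 3.43) on 25 UMIs. Pmaip1, the NOXA gene, stood at 20.7 against 15.4 CPM (1.35, 1.05 to 1.72). Others did not differ beyond counting error: Ccng1 had a ratio of 1.14 (0.935 to 1.38), Zmat3 0.992 (0.734 to 1.32) and Sesn1 0.914 (0.605 to 1.33).

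The other CDK inhibitor genes with UMIs had ratios from 0.781 to 1.16. Cdkn2a, which encodes p16 and ARF, was the only one above the level minimum and stood at 469 against 485 CPM (0.968, 0.920 to 1.02). Cdkn1b, the p27 gene, had a ratio of 1.16 (0.952 to 1.41), Cdkn2c 0.920 (0.726 to 1.15), Cdkn2d 0.782 (0.593 to 1.01) and Cdkn3 1.00 (0.846 to 1.18). Cdkn2b, the p15 gene, had a ratio of 0.781 (0.642 to 0.941). Cdkn1c, the p57 gene, had 0 UMIs in positive cells.

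**Figure D5:**
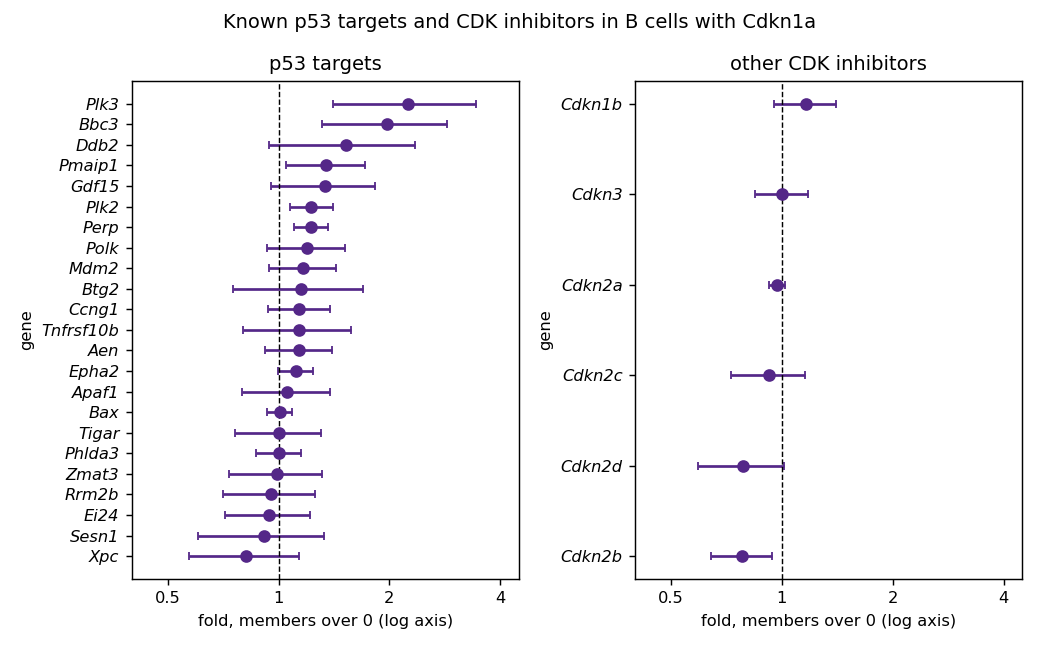
Fold of Cdkn1a-positive over Cdkn1a-zero B cells (log axis) for p53 targets and other CDK inhibitors with at least 3 CPM over all B cells, a minimum chosen after seeing the data, with exact 95% counting intervals. Of 23 targets 18 lie above 1, 5 of them with the whole interval, and 0 have an interval wholly below 1. Of all 10232 genes at that minimum, 48.0% lie above 1. The targets Mdm2 (1.17) and Ccng1 (1.14) have intervals that reach 1, and Cdkn2b is at 0.781.

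Of the genes known to act on Cdkn1a transcription, Klf4 was the 1 of 8 tested past the threshold, at 101 against 79.4 CPM (1.28, 1.14 to 1.42), beside 0.706% of all tested genes. Klf6 stood at 162 against 142 CPM, Runx1 at 109 against 100 CPM and Cebpb at 140 against 133 CPM. Smad4 stood at 58.0 against 58.3 CPM and Myc, a repressor of Cdkn1a, at 76.0 against 77.1 CPM. The 6 tested genes for p21 protein turnover had a median log2 ratio of 0.00.

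Positive cells were more frequent among B cells with squamous transcripts. The share was 5.89% (5.33 to 6.49%) of 6556 B cells with 0 UMIs of Krt14 and Sprr1a, 8.54% (7.32 to 9.90%) of 1873 with 1 or 2, and 11.8% (8.81 to 15.4%) of 398 with 3 or more. The Cdkn1a level was 20.95, 30.8 and 45.7 CPM. The share did not differ in this way with Areg, Btc and Cftr, at 6.20%, 6.85% and 7.13% in the same bins, with overlapping intervals. Of the 61 cells with 3 or more UMIs of both sets, 8 were positive (13.1%, 5.84 to 24.2%).

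The squamous list together held 1477 CPM in positive and 1377 CPM in zero cells, a ratio of 1.07 (1.04 to 1.10). Of 8 tested genes 5 had a ratio above 1 and 3 below, and the 2 past the threshold were Sprr1a and Krt14, beside 0.706% of all tested genes. The median log2 ratio of the tested genes was 0.05. The junction gene Jup stood at 79.6 against 73.8 CPM, S100a14 at 84.1 against 80.1 CPM and Anxa8 at 184 against 179.6 CPM. The fatty acid carrier gene Fabp5 stood at 260 against 294 CPM, the desmosome gene Dsp at 129 against 136 CPM and S100a16 at 303 against 318 CPM. Weighted to the positive cells' makeup of Krt14 with Sprr1a and of Areg with Btc and Cftr, 16 of the 23 higher genes and 23 of the 27 lower genes were past it. Nupr1 was at 0.66 on the log2 scale under that weighting, against 0.79 without it. Sprr1a, which the weighting uses, went from 0.78 to 0.10 and was no longer past the threshold.

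Ductal and growth-factor genes lay within the fold threshold. The keratin Krt18 stood at 3189 against 3008 CPM, Vim at 2053 against 1967 CPM and S100a6 at 23712 against 23734 CPM. The EGF-receptor ligand gene Areg stood at 455 against 421 CPM (1.08, 1.03 to 1.14), Btc at 37.3 against 35.4 CPM and the chloride channel gene Cftr at 52.98 against 43.4 CPM (1.22, 1.05 to 1.42). All tested genes of the lists for SMAD signalling (10), YAP targets (7), NRF2 targets (10), DNA damage (1), hypoxia and glycolysis (9), interferon (4), apoptosis (5) and mesenchymal genes (6) lay within the fold threshold. In the senescence and secretory list, Mmp13 was the 1 gene of 10 past that fold (0.706% of all tested genes), at 68.7 against 51.6 CPM, and the median was 0.00. The heavy ferritin gene Fth1, of the NRF2 list, stood at 5037 against 4403 CPM.

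The share of positive cells followed neither depth nor the mitochondrial share in order. It was 7.56%, 6.71%, 5.44% and 7.16% from the lowest to the highest quartile of total UMIs. It was 7.11%, 6.03%, 6.94% and 6.80% over quartiles of the mitochondrial share. A doublet caller marked 208 of all 8936 B cells. Without the marked cells, the share was 6.77% of 8623 B cells of sufficient depth, and 22 genes were higher and 25 lower past the threshold.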

How the data were processed

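Per the labels' protocols, pooled clones were measured with the 10x 3′ v4 kit. The deposited matrix holds whole-number UMI counts per gene and barcode, not normalized, written by Cell Ranger 8.0.1 per the file headers. The genome build is GRCm39 per the submitters' processing notes, and any cell filter of the authors is not given in the sources used here. The library held 22178 barcodes with 500 to 23576 UMIs each.

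Members, gene lists and comparisons were chosen with earlier results of these data known. Cells were filtered, classed and thinned to 3000 UMIs (seed 1) as described above, with numpy 2.4.6 and scipy 1.17.1. Levels are CPM from summed UMIs. Ratios have exact conditional intervals, levels exact Poisson intervals and shares Clopper-Pearson intervals, at 95%. With 1 library no test across samples was possible. Genes were compared at 50 CPM or more, and counted past a log2 ratio of 0.32 in either direction. Named genes were the 12 highest and 12 lowest ratios, all CDK inhibitors, called or most abundant list genes and a few fixed genes. Others, among them Egr1, Atf3, Ddit3, Dusp1, Sfn, Jun, Fos, Bbc3, Plk3, Pmaip1, Ccng1, Zmat3, Sesn1, Cdc6, Mcm5 and the neighbours of Cdkn1a, were picked once their values were known. The summed ratios and the fold call were tested on simulated counts, and the thinning was checked on real cells. The simulated counts did not model UMIs concentrated in few cells, and the other steps were not simulated. Doublets were kept, and left out in an alternative (Scrublet in scanpy 1.11.5, expected rate 0.08). The counting of strand and of reads that match several genes is not given in the sources used here, so counts of near-identical genes such as H2bc4, Gm8797, Fth1 and Ftl1 are uncertain. A count of 0 allows up to 3 UMIs.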

Additional observations from a re-analysis of the deposited data

Results flagged for a closer look

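Cdkn1a transcripts were also counted in barcodes outside the main comparison, above the 3 UMIs that a count of 0 allows. Cells of neither class held 303 Cdkn1a UMIs in 229 of 4609 cells, 13.5 CPM (11.98 to 15.1), with up to 13 in 1 cell. B cells under 3000 UMIs held 8 UMIs in 5 of 109 cells, 28.6 CPM (12.3 to 56.3). Barcodes that failed the cell filter held 9 UMIs in 8 of 817 barcodes, 9.57 CPM (4.38 to 18.2).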

How the results depend on the processing

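The held-out Cdkn1a ratio of 3.50 stayed above 1 in every setting tried, and was 9.20 for cells with 2 or more drawn UMIs and 2.84 for cells with exactly 1. The positive share followed the depth of the draw: 4.55% at 2000 UMIs, 9.82% at 5000 and 11.7% without thinning. It was 0.589% for 2 or more UMIs and 6.13% for exactly 1. The share in the lowest tertile of mitosis UMIs over that in the highest was 1.78, and 2.46 for 2 or more UMIs and 2.63 at 5000 UMIs.

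Against 23 higher and 27 lower genes, the counts were 36 and 77 at 2000 UMIs, 35 and 53 at 5000, and 440 and 678 in the 52 cells with 2 or more UMIs. From held-out UMIs they were 49 and 77, with a 20 CPM minimum 108 and 173, with a 100 CPM minimum 5 and 8, and with a 1.5-fold threshold 3 and 1. The lower genes were 67 from thinned UMIs, 50 with the second draw, 43 under the strict class rule and 15 when matched on cell cycle. Fewer cells, fewer UMIs and scarcer genes widen the counting error of a ratio. Matched on state, which uses Krt14 and Sprr1a, Krt14 went to -0.012 and Sprr1a from 0.78 to 0.10 on the log2 scale. Cdc20 went to 0.38 and Ubn2 to 0.23 on the log2 scale in cells with 2 or more UMIs; the cause was not tested. Of 525 further values of 35 named genes, 470 stayed within the counting interval, and of 390 values of 23 lists, 329 did. No paired analysis was possible because the deposited matrix is 1 library.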
